A study of Mus musculus with 12 samples.

Results

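Sterol and fatty acid synthesis was followed through 34 named genes, the enzymes and regulators of the SREBP (sterol regulatory element-binding protein) programme. They were taken by gene symbol from 46729 entries of a table of RNA levels in mouse macrophages. The list was chosen with earlier results of these data known. Of the 34 genes, 33 had an entry, and Mvd, the enzyme that makes isopentenyl diphosphate, has no RNA level here and enters only the promoter search below. The macrophages were grown from bone marrow of C57BL6 mice over 10 days, in interleukin-3 at first and in medium conditioned by L-929 cells, which supplies colony-stimulating factor 1, throughout. Fresh medium without interferon gamma (IFNγ) or with 0.2, 2 or 20 U/ml was then applied for 8 h. Each of the 4 groups had 3 libraries, and the labels do not say whether these came from separate animals. The label of the strongest dose reads 20 U without a volume and was taken as U/ml.

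The table gives 1 value per entry and group, in FPKM (sequenced fragments corrected for transcript length and library size), so no difference below has a replicate check or a test. A difference is given as log2(FPKM + 1) in one group minus that in another, called the log2 ratio. A gene counts as higher or lower when this is at least 1 in size, a 2-fold difference on that scale. Entries averaging under 1 FPKM, or listed at 0 in any group, were set aside, which left 11580 entries and 31 of the 34 genes. Scd1 stayed under that mean and Fdft1 was listed at 0 in a pair of groups. Of the 33 genes, 5 shared an entry with overlapping genes (Fdps, Tm7sf2, Srebf1, Scd2 and Acsl3), and their reads cannot be told from those of their neighbours.

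SREBP proteins are held in the endoplasmic reticulum by their escort protein SCAP and the INSIG proteins when sterols are plentiful. When sterols run low they move to the Golgi, are cut, and enter the nucleus, where they switch on cholesterol synthesis (mainly SREBP2, from Srebf2) and fatty acid synthesis (mainly SREBP1, from Srebf1). In macrophages the programme supplies membrane lipid, and side products such as 25-hydroxycholesterol feed back on it.

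SREBP binds sterol regulatory elements beside sites of NF-Y (CCAAT) and Sp1 (GGGCGG), so the promoters of the members were searched for these letters on both strands. RefSeq promoter windows on GRCm38.p6, from 250 bases before to 50 bases after the start, were found for 27 of the 34 genes. The sterol element core, TCACNCCAC, was in the window of 1 of the 27 genes, Hmgcs1, and in 1.44% of all 27025 genes with a window. Both CCAAT and GGGCGG were in a window of 19 of the 27 genes (70.4%), against 14.5% of all genes and 28.1% of the 7695 genes that had both a window and a single-gene entry used for ratios. These shares describe letters only, and no binding was measured. Printed here is Hmgcs1 as the gene with the sterol core, then Cyp51 and Insig1, which were lower at 20 U/ml, and Fasn, which was not. Each is the part of the 250 bases before the start that no annotated exon covers, 5′ to 3′ on the gene's strand, with matches to TCACNCCAC, CCAAT and GGGCGG on either strand in capitals.
Hmgcs1, chr13:119690101-119690350, plus strand: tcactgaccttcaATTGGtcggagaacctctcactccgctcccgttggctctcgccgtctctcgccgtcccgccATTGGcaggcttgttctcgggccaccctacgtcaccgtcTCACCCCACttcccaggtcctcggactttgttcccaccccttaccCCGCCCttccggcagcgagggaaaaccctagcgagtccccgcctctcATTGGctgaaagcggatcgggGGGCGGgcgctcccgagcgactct
Cyp51, chr5:4104747-4104947, minus strand: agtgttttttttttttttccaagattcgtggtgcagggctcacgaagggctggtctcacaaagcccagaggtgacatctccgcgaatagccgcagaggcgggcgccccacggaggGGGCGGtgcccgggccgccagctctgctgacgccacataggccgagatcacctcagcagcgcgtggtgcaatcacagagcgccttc
Insig1, chr5:28071162-28071362, plus strand: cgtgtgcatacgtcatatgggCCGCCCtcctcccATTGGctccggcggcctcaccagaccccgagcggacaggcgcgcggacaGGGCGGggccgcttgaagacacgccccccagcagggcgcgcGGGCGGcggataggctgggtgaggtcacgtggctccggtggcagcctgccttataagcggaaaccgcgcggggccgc
Fasn, chr11:120824548-120824797, minus strand: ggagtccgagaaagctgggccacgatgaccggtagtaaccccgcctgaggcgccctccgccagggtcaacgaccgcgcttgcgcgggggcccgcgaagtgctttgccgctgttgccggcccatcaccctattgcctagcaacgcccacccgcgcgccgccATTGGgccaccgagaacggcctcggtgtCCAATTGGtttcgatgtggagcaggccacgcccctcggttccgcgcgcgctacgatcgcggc
The sterol core of Hmgcs1 lay from 137 to 129 bases before the start, in the exact form TCACCCCAC. Its stretch also held 3 CCAAT and 2 GGGCGG matches. The Insig1 stretch held 1 CCAAT and 3 GGGCGG matches, the Cyp51 stretch 1 GGGCGG, and the Fasn stretch 3 CCAAT and no GGGCGG. The full window of Cyp51 also held CCAAT, outside the printed stretch, and the gene is among the 19 with both.

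The first comparison, 20 U/ml against untreated, asked how the programme stood under the strongest dose. Of the 31 genes, 7 were lower and 0 higher: Idi1, Cyp51, Sqle, Fads2, Msmo1, Acat2 and Insig1. Over all 11580 entries 2.94% were lower and 6.51% higher. The median log2 ratio of the 31 genes was -0.54, against 0.01 over all entries, and 25 of the 31 were below 0. The 17 measured sterol enzymes and transport genes had a median of -0.80 with 5 lower, and the 9 fatty acid genes a median of -0.06 with 1 lower. Upper-quartile scaling, which moved the median of all entries by -0.13, gave 11 lower and 0 higher, where 4.08% of all entries were lower and 5.43% higher. A 1.5-fold rule gave 15 lower and 0 higher, where 9.6% of all entries were lower.

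**Figure D1:**
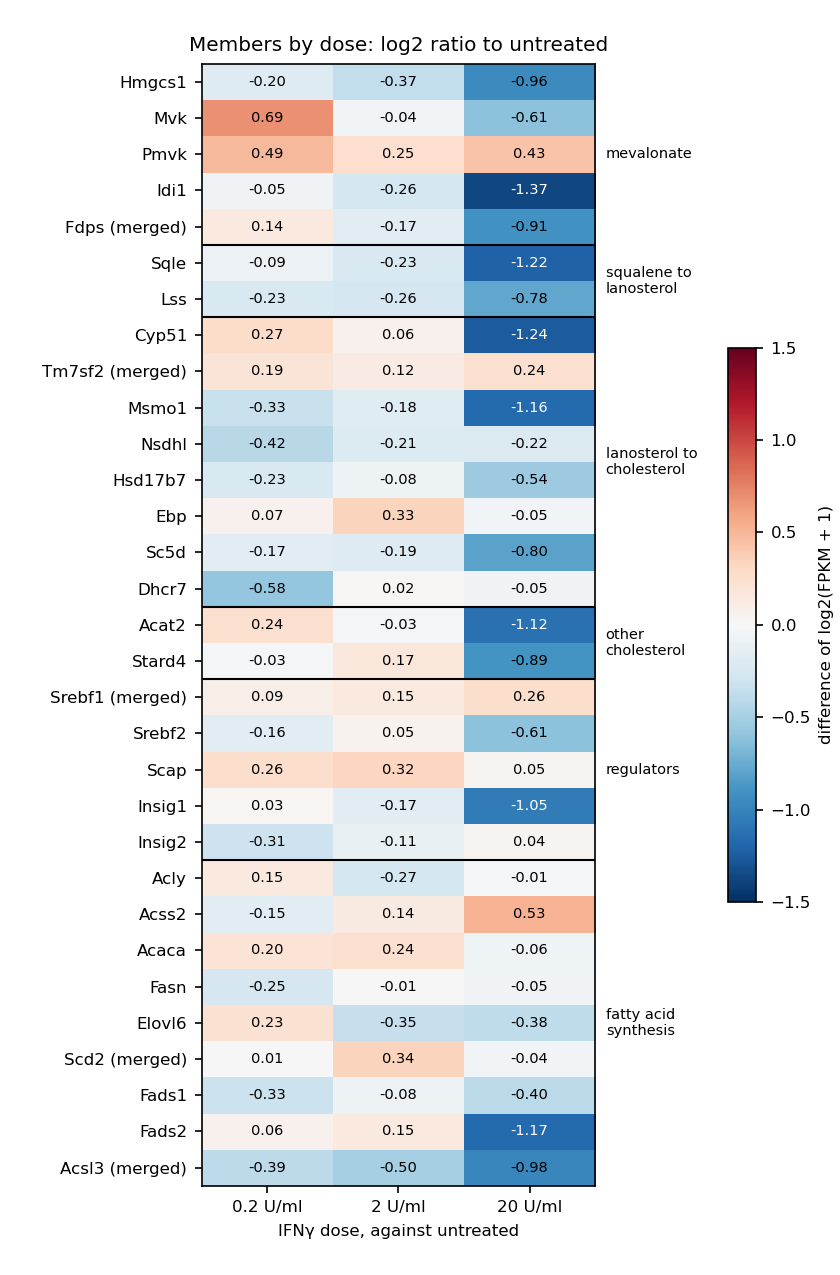
Differences of log2(FPKM + 1) from untreated for the 31 measured genes (rows, grouped by role; merged entries marked) at 0.2, 2 and 20 U/ml (columns), 1 value per group. The column at 20 U/ml holds the darkest blue cells, down to -1.37 for Idi1, while no cell at 0.2 or 2 U/ml passes 1 in size.

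The mevalonate pathway turns acetyl units into isoprenoid building blocks. Hmgcs1, which makes HMG-CoA (chromosome 13, 119690379 to 119708260, GRCm38), stood at 43.0 FPKM without IFNγ, then 37.4, 33.0 and 21.6 with 0.2, 2 and 20 U/ml. Each dose was thus below the one before it, and the log2 ratio at 20 U/ml was -0.96, just short of the rule. Idi1, the isomerase of isopentenyl diphosphate (chromosome 13, 8885501 to 8892451), was at 24.4, 23.5, 20.2 and 8.82 FPKM in the same order. It had the lowest ratio of all members, -1.37, and ranked 124th from the bottom of the 11580 entries. The merged entry of Fdps, farnesyl diphosphate synthase, with Gm43738 and Rusc1 was at 113, 124, 99.97 and 59.8 FPKM (-0.91).

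The kinases of the pathway differed from each other at 20 U/ml. Mvk, mevalonate kinase, stood at 25.6 FPKM without IFNγ, then 41.8, 24.8 and 16.4 with 0.2, 2 and 20 U/ml. Its value at the weakest dose was the highest of the 4, with a log2 ratio of 0.69, the largest of any member at that dose. Like the enzymes above, Mvk was lowest at 20 U/ml, with a ratio of -0.61. Pmvk, phosphomevalonate kinase, was at 28.1, 39.8, 33.7 and 38.3 FPKM, above untreated at every dose and at 0.43 at 20 U/ml.

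Squalene and lanosterol synthesis form the next stretch. Sqle, squalene epoxidase (chromosome 15, 59315077 to 59331192), stood at 32.6 FPKM without IFNγ, then 30.5, 27.6 and 13.5 with 0.2, 2 and 20 U/ml. Lss, which closes the ring to lanosterol, was at 8.06, 6.71, 6.58 and 4.28 FPKM. Log2 ratios at 20 U/ml were -1.22 for Sqle and -0.78 for Lss. Fdft1, squalene synthase, was listed at 0 without IFNγ and with 2 U/ml, against 94.7 FPKM with 0.2 U/ml and 46.3 with 20 U/ml. In the authors' deposited comparison its status is HIDATA, a mark of too many reads, so no ratio is given.

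The enzymes from lanosterol to cholesterol were split. Cyp51, lanosterol 14-alpha-demethylase (chromosome 5, 4081145 to 4104746), stood at 17.4 FPKM without IFNγ, then 21.2, 18.2 and 6.79 with 0.2, 2 and 20 U/ml. Msmo1, the methylsterol monooxygenase (chromosome 8, 64718139 to 64733792), was at 97.1, 77.1, 85.5 and 42.9 FPKM. In both, the value at 20 U/ml was the lowest of the 4, with log2 ratios of -1.24 and -1.16. The deposited locus of Cyp51 begins at 3928054, well before the gene, so reads of a neighbour there cannot be told apart from its own. Sc5d, the sterol C5 desaturase, was at 8.74, 7.64, 7.52 and 4.59 FPKM (-0.80), and the keto reductase gene Hsd17b7 at 2.10, 1.64, 1.94 and 1.13 (-0.54).

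Other enzymes of the same stretch were close to untreated at 20 U/ml. Ebp, the sterol isomerase and the most abundant single-gene member, stood at 149 FPKM without IFNγ, then 156, 188 and 145 with 0.2, 2 and 20 U/ml. Dhcr7, which makes cholesterol from 7-dehydrocholesterol, was at 13.2, 8.47, 13.3 and 12.7 FPKM. Its lowest value was therefore at the weakest dose, not the strongest, with a log2 ratio of -0.58 there. Nsdhl, a decarboxylating sterol dehydrogenase, was at 10.2, 7.36, 8.65 and 8.61 FPKM. The entry of Tm7sf2, a sterol C14 reductase, merges Gm28374, Vps51 and Zfpl1 and was at 110, 126, 119 and 130 FPKM.

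Acat2 and Stard4 act beside the pathway, as a cytosolic acetoacetyl-CoA thiolase and a carrier of cholesterol between membranes. Acat2 (chromosome 17, 12942890 to 12960747) stood at 12.3 FPKM without IFNγ, then 14.7, 12.0 and 5.12 with 0.2, 2 and 20 U/ml. Stard4 was at 7.92, 7.73, 9.05 and 3.81 FPKM. Ratios at 20 U/ml were -1.12 and -0.89, and the FPKM of Stard4 there was 48.1% of untreated. With a pseudocount of 0.1 Stard4 was at -1.04.

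Among the regulators the values diverged. Insig1, itself a SREBP target (chromosome 5, 28071363 to 28078662), stood at 43.6 FPKM without IFNγ, then 44.6, 38.7 and 20.5 with 0.2, 2 and 20 U/ml (-1.05). Insig2, the second INSIG protein, was at 16.8, 13.3, 15.5 and 17.3 FPKM, so the pair of anchors differed at the strongest dose. Srebf2 was at 23.1, 20.6, 23.9 and 14.7 FPKM, with a log2 ratio of -0.61. The merged entry of Srebf1 and Mir6922 was at 19.0, 20.3, 21.1 and 22.9 FPKM, a little higher with each dose and at 0.26 at 20 U/ml. Scap, the escort protein, was at 12.7, 15.5, 16.2 and 13.2 FPKM. The ratios of Insig2 (0.04) and Scap (0.05) at 20 U/ml turned negative under upper-quartile scaling and quantile normalization.

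The enzymes that build fatty acids from acetyl units were mostly close to untreated at 20 U/ml. Acly, which makes cytosolic acetyl-CoA from citrate, stood at 55.6 FPKM without IFNγ, then 61.6, 46.0 and 55.0 with 0.2, 2 and 20 U/ml. Fasn, fatty acid synthase, was at 17.9, 14.9, 17.8 and 17.3 FPKM, and Acaca, which makes malonyl-CoA, at 2.20, 2.68, 2.79 and 2.06. None of the 3 was further than 0.06 from untreated on the log2 scale at 20 U/ml. Acss2, which makes acetyl-CoA from acetate, had the highest ratio of all members there, 0.53, with 8.84 against 5.83 FPKM. Its deposited locus (155490379 to 155594955) runs beyond the gene (155517948 to 155585724) at both ends. Reads of a neighbour there cannot be told apart from those of Acss2.

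The desaturases were all below untreated at 20 U/ml, by unlike amounts. Fads2, the delta-6 desaturase (chromosome 19, 10062765 to 10101746), stood at 8.18 FPKM without IFNγ, then 8.60, 9.15 and 3.09 with 0.2, 2 and 20 U/ml, a ratio of -1.17. Its neighbour Fads1, the delta-5 desaturase, was at 41.1, 32.6, 38.8 and 30.8 FPKM (-0.40). The merged entry of Scd2, a stearoyl-CoA desaturase, with Mir5114 was at 8.76, 8.80, 11.3 and 8.47 FPKM. Scd1 was under the filter in all groups, at 0.608, 0.431, 0.423 and 0.233 FPKM. The elongase gene Elovl6 was at 1.46, 1.88, 0.928 and 0.889 FPKM. The merged entry of Acsl3, which activates fatty acids, with Utp14b was at 13.1, 9.75, 8.98 and 6.15 FPKM, lower at each dose and at -0.98 at 20 U/ml.

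**Figure D2:**
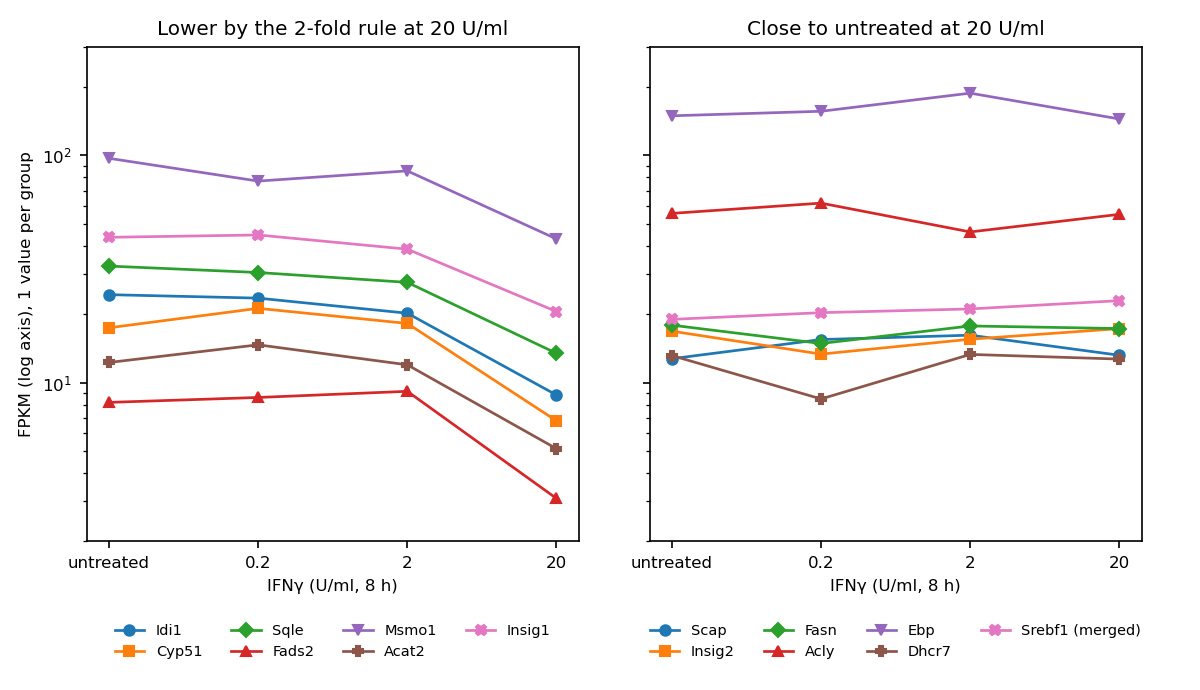
FPKM on a log axis in the 4 groups (untreated and 0.2, 2 and 20 U/ml for 8 h), 1 value per group and so no error bars. On the left the 7 members lower by the rule at 20 U/ml drop between 2 and 20 U/ml, and on the right 7 genes lie between 96.5% and 121% of untreated at 20 U/ml, among them Dhcr7 with its lowest value at 0.2 U/ml.

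The weaker doses were compared with untreated cells in turn. At 2 U/ml 0 of the 31 genes were higher and 0 lower, where 2.5% and 0.76% of all entries were, and the median log2 ratio of the genes was -0.04. The range ran from -0.50 for the Acsl3 entry to 0.34 for the Scd2 entry, and Hmgcs1 (-0.37) was the lowest single-gene sterol enzyme. At 0.2 U/ml 0 were higher and 0 lower as well, against 5.23% and 0.328% of all entries. The range ran from -0.58 for Dhcr7 to 0.69 for Mvk, with a median of -0.03.

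The steps between doses show where the values parted. From 0.2 to 2 U/ml 0 of the 31 genes were higher and 0 lower, against 1.51% and 6.26% of all entries, with a median of 0.04. From 2 to 20 U/ml 5 were lower and 0 higher, against 1.11% and 2.9% of all entries, with a median of -0.47 against 0.02. These 5 were Fads2 (-1.31), Cyp51 (-1.30), Idi1 (-1.11), Acat2 (-1.08) and Stard4 (-1.06). Sqle (-0.99) and Msmo1 (-0.98) came next and passed under both upper-quartile scaling and quantile normalization. This step and the comparison with untreated cells share the values at 20 U/ml, so they are not separate observations.

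**Figure D3:**
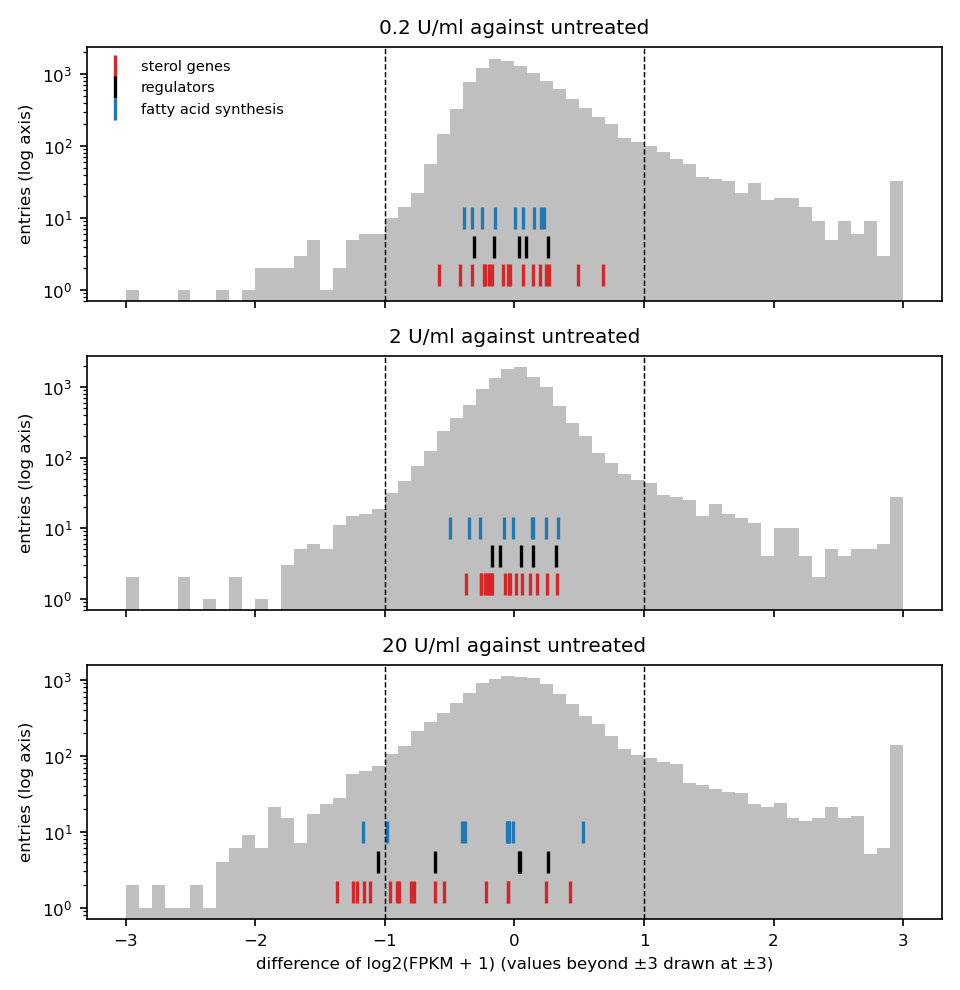
Histograms of the log2 ratio to untreated over the 11580 entries (grey, count on a log axis) for 0.2, 2 and 20 U/ml, with ticks for sterol genes (red), regulators (black) and fatty acid genes (blue), at heights that carry no meaning, and dashed lines at -1 and 1. At 20 U/ml most red ticks lie left of 0 and 5 lie beyond -1, while at the other doses all ticks lie between the dashed lines.

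Other genes of sterol and lipid metabolism, a list of 37 of which 32 were measured, went both ways at 20 U/ml. Lower were 3, among them Aacs, which activates acetoacetate, at 14.8 against 31.0 FPKM (-1.02), and Lpin1, a phosphatidate phosphatase, at 0.552 against 2.35 (-1.11). Higher were 5: Ch25h, which makes 25-hydroxycholesterol, at 73.0 against 2.66 FPKM (4.34), Acsl1, an acyl-CoA synthetase, at 33.2 against 9.95 (1.64), the cholesterol exporter Abcg1 at 63.1 against 22.6 (1.44), the ubiquitin ligase Rnf139 at 16.4 against 6.94 (1.13) and Pdss1 at 11.9 against 5.21 (1.05). Pdss1, which builds the side chain of ubiquinone, was under the rule with either scaling, at 0.93 and 0.98. For comparison, 2.94% of all 11580 entries passed the rule downward in the same contrast and 6.51% passed it upward. The median of the 32 measured genes was 0.07.

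Genes that respond to IFNγ, cell identity and cell division were read beside these values. Irf1, a transcription factor induced by IFNγ, was at 34.1, 89.1, 293 and 511 FPKM from untreated to 20 U/ml, higher with each dose. All 8 macrophage markers reached 1 FPKM in at least 1 group, and 30 of 31 markers of 8 other classes of cell stayed under 1 FPKM in every group. Cd3e, Cd3g, Ncr1, Hbb-bt and Alb were listed at 0 throughout, and the highest value was 1.09 FPKM for Ms4a1. Of 4 osteoclast markers 3 reached 1 FPKM, and they did not move together. Ctsk was at 31.9, 27.9, 20.9 and 15.7 FPKM in dose order, Acp5 at 6.77, 5.32, 5.92 and 6.18, and Ocstamp at 0.142, 0.299, 0.403 and 1.80. All 4 markers of cycling cells reached 1 FPKM, and their summed level was 518, 562, 521 and 263 FPKM in dose order, so it was lowest in the group where the sterol enzymes were lowest. Whether this has a part in the values of the sterol genes was not tested. In bulk RNA fewer cells of a kind and less RNA per cell cannot be told apart.

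The authors' deposited comparison sets a condition called treated over one called untreated, with no dose named, and gives fold changes for the same genes. Its levels could not be matched to a labelled group and are not used here. Of 32 members that the authors tested, 27 were lower and 3 higher in the treated condition at the authors' q under 0.05, while 33.8% of the 12854 entries tested were lower and 35.1% higher. The median of the authors' log2 fold changes over the 32 members was -2.11, against 0.03 over all entries tested. By the 2-fold size rule 24 members were lower and 2 higher in the deposited table, against 25.2% and 27.2% of entries. The smallest p in the deposited table is 5e-05, shared by 6460 entries and by 27 of the 32 members, so the authors' q of those members is the same, 9.95e-05.

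Sterol enzymes were low in the authors' deposited table, with 16 of 17 tested lower and 1 higher, the merged entry of Tm7sf2 (0.53). Over all entries tested there, 33.8% were lower and 35.1% higher. The authors' log2 fold change in the deposited table was -4.14 for Dhcr7, -3.36 for Sqle, -3.19 for Hsd17b7 and -2.80 for Mvk. It was -2.58 for Hmgcs1, -2.52 for Ebp, -2.42 for Msmo1 and -2.26 for Idi1 in the same deposited table. Dhcr7 and Ebp, close to untreated at 20 U/ml in the table by dose, were thus among the low genes of this one.

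Of the 10 fatty acid genes tested in the authors' deposited table, lower were 8 and higher was 1. Over all entries tested there, 33.8% were lower and 35.1% higher. The authors' log2 fold change there was -5.32 for the merged entry of Scd2, the lowest of all members, and 1.66 for Acss2, the highest. Acly was at -2.84, Fads2 at -2.51 and Fasn at -1.17 in the deposited table. Among the 5 regulators the deposited table has 3 lower and 1 higher, with -2.13 for Insig1, -0.54 for Srebf2 and 1.03 for the merged entry of Srebf1. The authors' q of Insig2 (0.0827) and of the Acsl3 entry (0.394) in the deposited table did not pass.

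**Figure D4:**
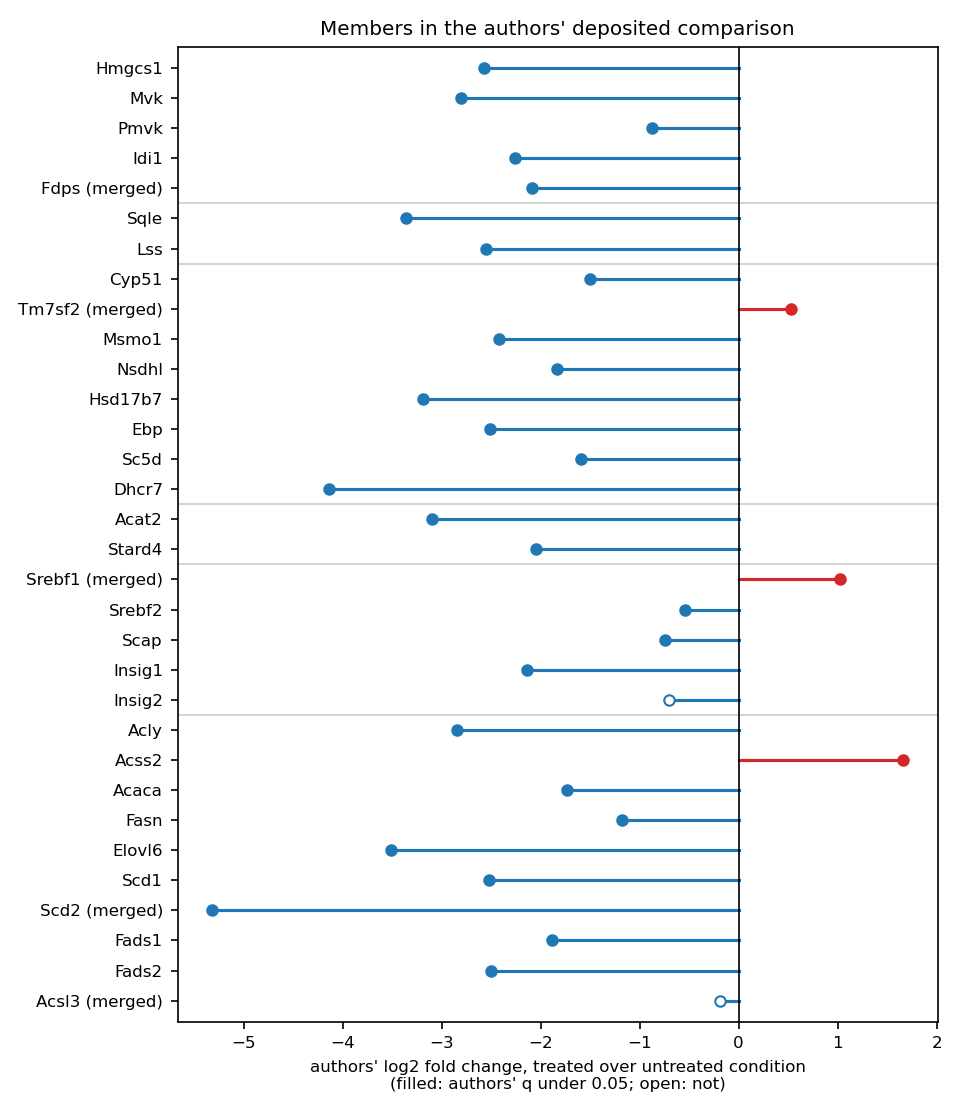
The authors' log2 fold change, treated over untreated condition (horizontal axis), for the 32 members tested in the deposited comparison (rows, by role), blue where lower and red where higher, filled where the authors' q is under 0.05. Of the 32 points 3 are red, for Tm7sf2, Srebf1 and Acss2, and the point farthest left is that of Scd2 at -5.32.

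The identity of that treatment was not given. In the authors' deposited table the IFNγ-induced genes Irf1 and Gbp2 were at log2 fold changes of 0.38 (authors' q of 0.0747) and 0.28 (q of 0.310). Cxcl10, a chemokine that IFNγ induces, was higher in the deposited table, at 2.80. Of the other sterol and lipid genes in the deposited table, 15 of 33 tested were lower and 13 higher. Over all entries tested there, 33.8% were lower and 35.1% higher. Singled out after their values were seen, Ch25h was at -4.04 and the cholesterol exporter Abca1 at 3.33 in the authors' deposited table. Ch25h was thus higher at 20 U/ml in the table by dose and lower in the treated condition of this one. The tables were normalized separately, and whether they share libraries was not stated.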

How the data were processed

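RNA sequencing of 12 libraries in 4 groups was deposited as a table of FPKM with 1 value per entry and group, per the file headers, made by the authors with TopHat2 2.1.1, Cufflinks 2.1.1 and Cuffdiff 2.1.1 on mm10, per the submitters' processing notes. Only the column for untreated cells lacks the word FPKM in its name, and it was read as FPKM from its range. Whether each value pools the libraries of its group was not stated, and depth is unknown. A second deposited table holds a Cuffdiff comparison with log2 fold change, a test statistic (score), p-value and q-value, per the file headers. Its 2 columns of levels match no labelled group and were not used. Groups came from the labels.

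Entries were found by splitting the gene names at commas. Log2 ratios used a pseudocount of 1, which understates differences of low genes, over 11580 entries: 11852 with a mean of at least 1 FPKM, less 272 listed at 0 in a group. No test was possible with 1 value per group. The members, gene lists, size rule and deposited contrast were chosen with earlier results of these data known. All listed members are named, and other pathway genes where past the size rule at 20 U/ml. Some items of the other lists are not reported here. Among members past that rule, Sqle had no promoter window and was not searched, and none of the others had the sterol core, so the promoters printed were chosen after the values were seen. Gene positions are from GENCODE M21 (GRCm38), and all 33 members with a deposited locus overlapped theirs. Computing used Python 3.11.15, pandas 2.3.3, numpy 2.4.6 and matplotlib 3.10.9. The size rule was tested on simulated data, with planted changes larger than the log2 ratio of any member by dose. That run therefore does not check calls near the rule.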

Additional observations from a re-analysis of the deposited data

How the results depend on the processing

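Lower members at 20 U/ml numbered 7 in the main setting, where 2.94% of all entries were lower. They numbered 11 with upper-quartile scaling (4.08% of all entries) and 15 with a 1.5-fold rule (9.6%). With the other settings they numbered 7 to 10, where 1.87% to 4.94% of all entries were lower. From 2 to 20 U/ml, 5 were lower in the main setting, where 1.11% of all entries were. In that step 12 were lower with the 1.5-fold rule (4.94% of all entries lower, 7.69% higher). Otherwise 5 to 7 were lower, where 0.71% to 2.38% of all entries were. The 1.5-fold rule also gave 1 higher at 0.2 U/ml (Mvk), where 11.6% of all entries were higher. From 0.2 to 2 U/ml it gave 1 lower (Mvk) and 1 higher (Dhcr7), where 13.2% and 5.77% of all entries were. A pseudocount of 0.01 gave 1 lower in that step (Elovl6), where 8.01% of all entries were lower. With entries listed at 0 included, Fdft1 made 1 higher at 20 U/ml and 1 higher at 0.2 U/ml. It also made 1 lower from 0.2 to 2 U/ml and 1 higher from 2 to 20 U/ml. Each rests on an untreated or 2 U/ml value listed at 0. In the same order, 7.23%, 5.89%, 6.96% and 3.76% of all entries were called in that direction. The median at 0.2 U/ml was -0.13 with upper-quartile scaling and -0.14 with quantile normalization, which moved the median of all entries there by -0.10 each. Over the settings run, the median ranged from -0.65 to -0.47 at 20 U/ml, from -0.55 to -0.42 from 2 to 20 U/ml, from -0.11 to -0.04 at 2 U/ml and from 0.01 to 0.08 from 0.2 to 2 U/ml. The 7 genes lower at 20 U/ml were lower in each setting run. No paired analysis was possible because the table holds 1 value per group and not per library, and for the same reason no replicate could be left out. Depth limits the low members, such as Hsd17b7, Elovl6 and Scd1, to an unknown degree.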
